A study of Mus musculus with 24 samples.

Results

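The named box C/D small nucleolar RNAs (snoRNAs) were followed by small RNA sequencing in cultured mouse CD4+ T cells and in the extracellular vesicles (EVs) they shed. They were chosen by name, as every feature listed as a snoRNA whose name starts with Snord, together with Snord43, which the deposited tables list as a miRNA, and Rnu3a, a U3 snoRNA. This gave 60 of the 4408 features in the tables. Lymph nodes and spleens of wild-type C57BL/6 animals supplied the T cells, which grew in high-glucose DMEM. Resting cultures underwent 2 days of stimulation and 1 day of expansion, after which IL2 medium held them at rest for 2 days. Stimulated cultures received plate-bound anti-CD3 at 2 µg/ml and anti-CD28 at 5 µg/ml for 3 days. DMSO and GW4869 cultures had 3 days of stimulation with either the solvent DMSO or GW4869 added, an inhibitor of neutral sphingomyelinase, an enzyme whose product ceramide takes part in the formation of some EVs; the labels give no antibody or inhibitor dose for them. Cells and EVs of each culture type gave 8 groups of 3 libraries, and as the resting cells had also been activated earlier, none of the groups represents naive T cells. Whether replicate libraries stem from separate mice or cultures is not stated in the labels, so p-values measure the spread between these libraries, which may be technical.

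Box C/D snoRNAs are short nucleolar RNAs that carry a box C motif near their 5′ end and a box D motif near their 3′ end. The boxes are bound by Snu13, Nop56, Nop58 and the methyltransferase fibrillarin, and most members guide this enzyme to a ribose of ribosomal RNA by base pairing. A few, among them U3, U8, U14 and U22, are needed for cleavage and folding of the ribosomal RNA precursor. Most vertebrate members are cut out of introns of host genes, many of which encode ribosomal proteins or are noncoding. Activated T cells grow and divide, and making ribosomes is part of that growth.

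Libraries held from 1290918 to 3231626 counts, and no listed value was below 4 counts; features under that level are not analysed here. All 60 members passed the low-count filter, with counts from 4 to 4341 in a library. Of 6 miRNAs chosen as marks of lymphocytes, 5 were listed, with a summed level of 20910 to 270100 CPM (read counts scaled to library size) per library. Most of this sum was Mir142, in resting cells a mean of 230200 CPM against 24120 for Mir150 and 3747 for Mir155. The sum thus mainly followed a single miRNA, and whether it measures lymphocyte content was not tested. Of 15 miRNAs chosen as marks of erythroid, myeloid, endothelial, epithelial, stromal and liver cells, 4 were listed (Mir451a, Mir126a, Mir200c and Mir141), with a summed level of 78.77 to 385.3 CPM; Mir144, Mir223 and Mir122 were among those not listed. The lymphocyte sum was 173700 to 243800 CPM in resting EVs and 20910 to 32900 CPM in GW4869 EVs. Between these groups the mean of Mir142 went from 174600 to 23370 CPM and that of Mir150 from 25700 to 1287 CPM. Mir155 changed little, from 4280 to 3652 CPM. The part of these changes in the results on the members was not tested. CPM here were scaled with TMM, which assumes that most features do not change. The TMM factors ran from 0.5628 in a resting cell library to 1.765 in a GW4869 EV library, so levels across conditions depend on the scaling and are set beside the median of all features. In bulk libraries, fewer cells or vesicles of a kind and less RNA in each cannot be told apart.

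The sequences of the 7 members that differed from the bulk of the members in the same direction in all 4 culture types are shown first, so that the 2 directions can be compared. They were taken from the transcripts of GENCODE M21 (GRCm38), where all 60 names were found. Capitals mark the sequence TGATGA, a strict form of box C, at its first occurrence, and the last CTGA, the form of box D; both were searched on the transcript's strand only. Snord43, Snord15b and Snord32a lay below the bulk of the members in EVs.
Snord43: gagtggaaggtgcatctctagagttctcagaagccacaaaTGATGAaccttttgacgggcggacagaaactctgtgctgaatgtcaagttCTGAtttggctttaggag
Snord15b: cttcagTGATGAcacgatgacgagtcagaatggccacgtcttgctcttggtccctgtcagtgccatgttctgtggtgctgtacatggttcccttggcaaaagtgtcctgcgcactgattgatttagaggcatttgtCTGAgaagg
Snord32a: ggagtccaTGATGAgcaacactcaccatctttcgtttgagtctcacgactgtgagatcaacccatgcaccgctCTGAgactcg

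Snord43 lies at chr15:80082847-80082954 on the minus strand, in an intron of Rpl3. Snord15b lies at chr7:99479563-99479707 on the minus strand within Rps3, where it overlaps an exon of at least 1 annotated host transcript. Snord32a lies at chr7:45127382-45127464 on the minus strand, in an intron of Rpl13a. The 4 members that lay above the bulk of the members in EVs follow.
Snord118: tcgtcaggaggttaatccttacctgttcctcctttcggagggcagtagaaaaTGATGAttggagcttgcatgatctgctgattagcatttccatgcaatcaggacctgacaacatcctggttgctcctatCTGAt
Snord14e: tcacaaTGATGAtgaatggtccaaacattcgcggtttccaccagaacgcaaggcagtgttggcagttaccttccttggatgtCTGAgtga
Snord17: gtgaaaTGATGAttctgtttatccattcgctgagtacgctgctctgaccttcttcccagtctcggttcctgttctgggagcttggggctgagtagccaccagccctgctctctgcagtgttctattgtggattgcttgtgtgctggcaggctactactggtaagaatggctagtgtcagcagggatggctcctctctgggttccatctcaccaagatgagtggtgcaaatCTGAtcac
Snord21: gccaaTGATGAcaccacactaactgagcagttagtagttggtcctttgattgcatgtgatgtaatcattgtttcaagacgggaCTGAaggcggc

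Snord118, the U8 snoRNA of large-subunit rRNA maturation, lies at chr11:69073427-69073561 on the plus strand, outside any annotated gene on its strand. Snord14e, a copy of U14, lies at chr9:40804748-40804837 on the plus strand within Hspa8. Snord17 lies at chr2:144265979-144266216 on the minus strand in an intron of Snx5, and Snord21 at chr5:107904555-107904648 on the plus strand within Rpl5. Both groups hold long and short RNAs: Snord17 has 238 bases, the most of all members, and Snord118 has 135, while Snord15b has 145. TGATGA was found in 44 of the 60 members (73.3%) and CTGA in 60 of 60. Of 42 named H/ACA transcripts, the other large snoRNA class, 0 held TGATGA and 54.8% held CTGA. Among 2101 miRNA hairpin transcripts of at least 60 bases, 0.4% held TGATGA followed by CTGA. A match describes letters only, and members without TGATGA may carry another form of the box.

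Averaged over the 24 libraries, the most abundant members were 2 U14 copies, RNAs that pair with the small-subunit rRNA precursor and are needed for its processing. Snord14c averaged 660.7 CPM and Snord14d 651.7 CPM. The order differed between groups: in resting cells Snord104 was above both, at a mean of 733.0 CPM against 691.9 for Snord14c, and in GW4869 EVs Snord118 was, at 115.9 against 103.7 CPM. They lie in Hspa8, at chr9:40803583-40803668 and chr9:40803995-40804080 on the plus strand, and differ at 2 of 86 bases, G47A and A49G, counted from 1 at the 5′ end with the Snord14c base first.
Snord14c: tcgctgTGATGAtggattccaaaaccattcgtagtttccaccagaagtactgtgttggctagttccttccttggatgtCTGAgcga
Snord14d: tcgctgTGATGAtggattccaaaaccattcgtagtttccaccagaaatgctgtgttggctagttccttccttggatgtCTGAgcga

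How reads that fit both copies were counted is not given in the sources used here, so their separate levels are uncertain. Snord118 followed with 422.0 CPM, then the rRNA methylation guides Snord104 (377.4 CPM), Snord65 (270.9 CPM) and Snord55 (254.3 CPM). Per length, Snord14c and Snord14d again ranked highest, at 768.2 and 757.8 CPM per 100 bases, and Snord118 fell to rank 7 at 312.6 CPM per 100 bases. The size selection of these small RNA libraries is not given in the sources used here. Here and below, counts of fragments and of whole snoRNAs therefore cannot be told apart. These 6 held 31.3% to 47.2% of the members' counts in the 8 groups. At the other end, Snord35b averaged 16.58 CPM.

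Taken as a sum, the members made up a small part of each library and a smaller part in EVs than in cells of the same culture type. Their share of counts was 0.485% ± 0.0132 (SD, n = 3) in resting cells and 0.147% ± 0.0206 (SD, n = 3) in resting EVs. In stimulated cultures it was 1.34% ± 0.0739 in cells and 0.268% ± 0.0157 in EVs, in DMSO cultures 1.28% ± 0.0163 and 0.319% ± 0.0271, and in GW4869 cultures 1.33% ± 0.141 and 0.216% ± 0.0179 (SD, n = 3 each). No EV library reached the share of any cell library. In a single library the counting error was small, for example 0.168% with an exact (Clopper-Pearson) 95% interval of 0.162% to 0.174% in resting EV replicate 1; such intervals cover counting error only. Reads of a member inside a host gene were also counted for the host, so these denominators count some reads more than once.

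**Figure D1:**
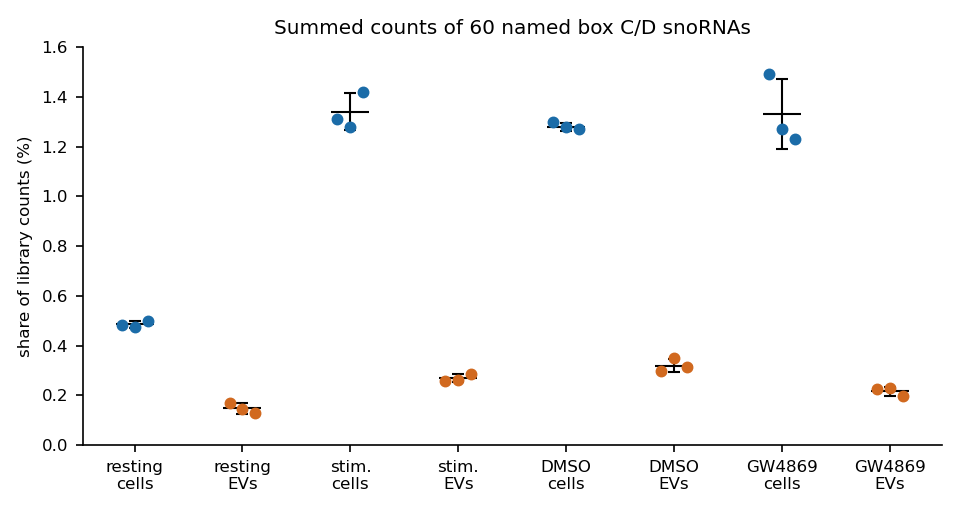
Share of each library's counts (%) held by the 60 named box C/D snoRNAs, by group. Points are libraries (blue cells, orange EVs), black lines are means and bars are SD (n = 3). The cell groups lie at 0.485% to 1.34% on average and the EV groups at 0.147% to 0.319%.

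Every member was lower in EVs than in cells in all 4 culture types. In resting cultures 60 of 60 members were called lower (edgeR quasi-likelihood test, adjusted p under 0.05, adjusted over all 4408 features), where 15.4% of all features were. The same 60 were called lower in stimulated, DMSO and GW4869 cultures, against 25.8%, 28.4% and 32.0% of all features. For 60 of 60 members the 3 EV libraries lay wholly below the 3 cell libraries in each culture type, as did 20.6%, 31.3%, 27.4% and 32.8% of all features. The median log2 fold of the members, EVs against cells, was -2.05 in resting, -2.79 in stimulated, -2.66 in DMSO and -3.54 in GW4869 cultures, while the median of all features was 0.10, 0.07, 0.29 and 0.18. The distance between these medians was -2.15, -2.86, -2.95 and -3.72, and a change of scaling, which moves all features alike, leaves it nearly fixed by construction.

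The snoRNA classes most like the members were also lower in EVs. The 21 named H/ACA snoRNAs and scaRNAs, which guide pseudouridylation or modify spliceosomal RNAs, had medians of -1.09, -2.38, -2.0 and -2.70 in resting, stimulated, DMSO and GW4869 cultures, with 12, 19, 19 and 20 called lower. The 60 snoRNA loci with Gm names had medians of -1.76, -2.66, -2.67 and -3.22, with 49, 60, 59 and 59 called lower. The difference between these classes and the members was not tested.

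**Figure D2:**
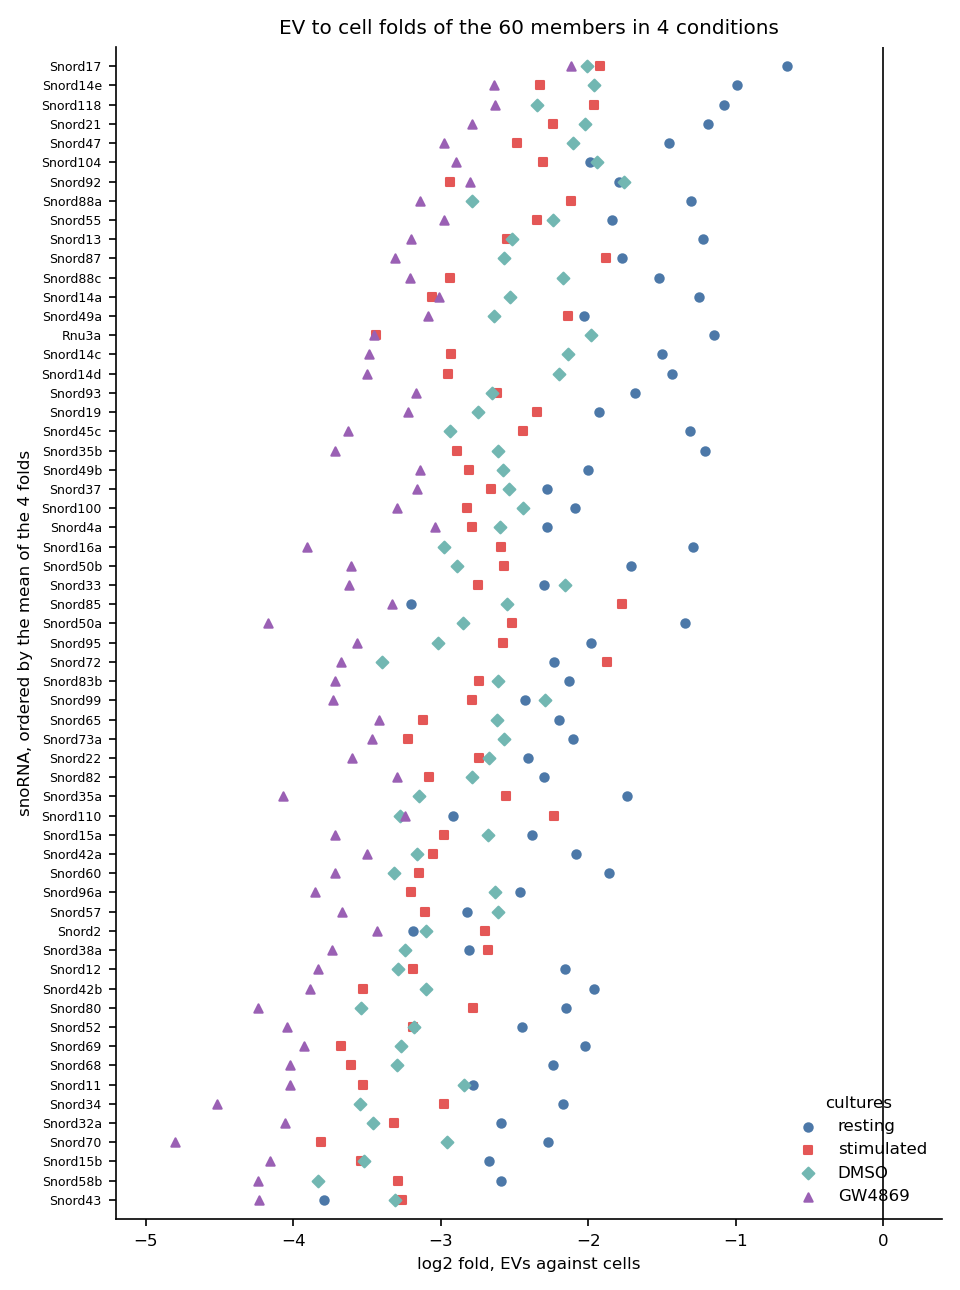
The log2 fold between EVs and cells for each of the 60 members (rows, ordered by the mean of the 4 folds) in 4 culture types (symbols). All points lie left of 0, from -0.65 (Snord17, resting) to -4.80 (Snord70, GW4869).

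Snord43, an rRNA methylation guide, had the lowest fold of all members in resting cultures. Its level in resting cells was 402.5, 395.6 and 438.0 CPM, and in resting EVs 32.40, 34.73 and 22.51 CPM. The fold was -3.79 ± 0.24 on the log2 scale (SE, adjusted p = 8.04e-12), 13.9-fold lower in EVs. In stimulated cultures Snord43 stood at 249.2, 319.2 and 253.2 CPM in cells and at 27.25, 25.23 and 33.40 CPM in EVs. GW4869 EVs held its lowest levels, 13.61, 17.79 and 10.61 CPM, against 291.8, 264.1 and 239.5 CPM in the cells.

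Snord17 lay at the other end. Resting cells held 98.36, 98.70 and 113.5 CPM of it and resting EVs 67.16, 65.30 and 64.91 CPM, so the groups came close without overlap. Its fold was -0.65 ± 0.20 (SE, adjusted p = 0.0102). In stimulated EVs its level was 22.50, 26.10 and 26.14 CPM, with 92.20, 97.45 and 92.91 CPM in the cells, a fold of -1.92 ± 0.20 (SE, adjusted p = 8.95e-09). The other 2 members with the smallest distance in resting cultures were Snord14e at -0.99 ± 0.20 and Snord118 at -1.08 ± 0.19, and after Snord43 the largest were Snord85 at -3.20 ± 0.34 and Snord2 at -3.19 ± 0.26 (SE).

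The order of the members changed with the culture type. In stimulated cultures Snord70, from an intron of Nop58, was lowest at -3.81 ± 0.33, and Snord85 was nearest to the cells at -1.77 ± 0.29, although it had been second lowest in resting cultures. In DMSO cultures the range ran from Snord58b at -3.83 ± 0.26 to Snord92 at -1.76 ± 0.39. In GW4869 cultures it ran from Snord70 at -4.80 ± 0.37 to Snord17 at -2.12 ± 0.20 (SE). Snord70 had only 5, 16 and 6 counts in the GW4869 EV libraries, so its fold there rests on few reads. Neighbours in these orders mostly lay within 1 SE of each other. Across the 60 members the fold went with length at Pearson r = 0.34 in resting, 0.04 in stimulated, 0.27 in DMSO and 0.23 in GW4869 cultures. With GC content it went at 0.22, 0.17, 0.34 and 0.28. By ranks (Spearman) the values were 0.37, 0.03, 0.24 and 0.02 for length and 0.22, 0.16, 0.34 and 0.21 for GC content. The value for length in GW4869 cultures thus depended on the measure. The members share the same libraries, so these values only describe them.

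To ask which members differed from the bulk of their own class, libraries were scaled to the members alone. In that fit 14 members were higher and 9 lower than the bulk in resting cultures, 12 and 9 in stimulated, 14 and 12 in DMSO, and 9 and 10 in GW4869 cultures. Because the other features are measured against depleted RNAs here, most features were called higher in these 4 fits. Of all features, 88.9%, 93.2%, 93.0% and 94.6% were called higher and 1.86%, 1.45%, 1.75% and 1.2% lower. P-values were adjusted over all features, and with most of them called, the adjustment hardly raised a member's p-value. The member calls in these fits are thus close to unadjusted ones. Adjustment over the members alone was not run, and calls near the threshold may not hold under it. In 4 of 4 culture types, Snord17, Snord118, Snord14e and Snord21 were higher, and Snord43, Snord15b and Snord32a were lower. Another 19 members were called in none of the 4, and 4 (Rnu3a, Snord110, Snord50a and Snord85) were higher in some and lower in others. Without GW4869 cell replicate 3 or GW4869 EV replicate 1, 6 members were lower in GW4869 cultures.

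The 4 members above the bulk in all culture types covered several roles. The relative log2 fold of Snord17 was 1.37 ± 0.16 in resting, 0.88 ± 0.16 in stimulated, 0.74 ± 0.15 in DMSO and 1.39 ± 0.16 in GW4869 cultures (SE). For the U8 snoRNA Snord118 it was 0.94 ± 0.15, 0.82 ± 0.15, 0.40 ± 0.15 and 0.90 ± 0.15. The U14 copy Snord14e had 1.02, 0.45, 0.77 and 0.87, each ± 0.14, and the methylation guide Snord21 had 0.82, 0.56, 0.74 and 0.74, each ± 0.18. All 4 were lower in EVs than in cells, but by less than the bulk of the members.

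The 3 members below the bulk in all culture types lie in ribosomal protein genes, as do 22 of the 60 members. Snord11, from Nop58, was lower in 3 of the 4, and Snord70, also from Nop58, in 2. Snord43 had a relative fold of -1.77 ± 0.20 in resting cultures and of -0.46 ± 0.19, -0.55 ± 0.19 and -0.74 ± 0.20 in stimulated, DMSO and GW4869 cultures (SE). Snord15b stayed between -0.66 and -0.75. Snord32a stayed between -0.51 and -0.63, with adjusted p from 0.017 to 0.05, so its calls stood at the edge of the threshold. As the adjustment was weak in these fits, its calls may not hold with adjustment over the members alone. Snord21, above the bulk, also lies in a ribosomal protein gene.

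**Figure D3:**
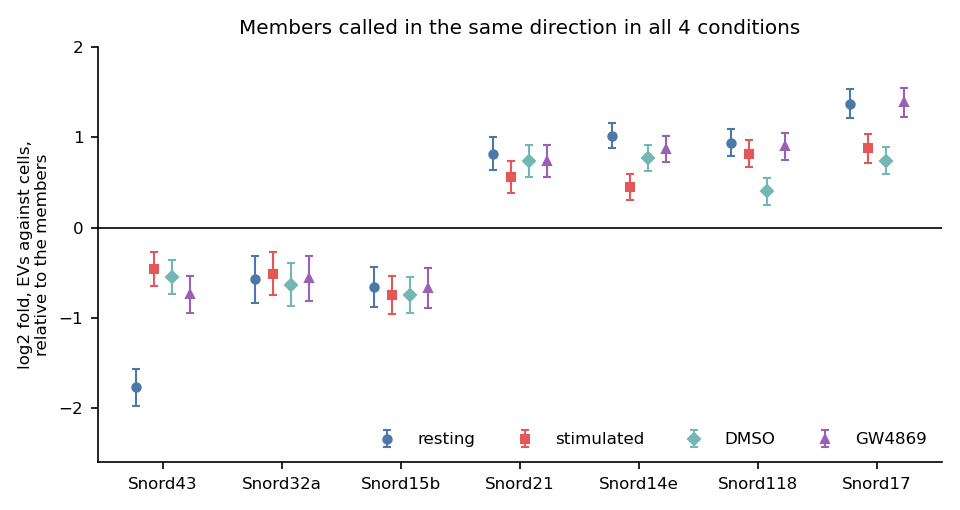
Log2 fold between EVs and cells relative to the members as a class, for the 7 members called in the same direction in all 4 culture types (symbols; bars are SE). Snord43, Snord32a and Snord15b lie below 0 and Snord21, Snord14e, Snord118 and Snord17 above 0, with Snord43 in resting cultures the lowest at -1.77.

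The snoRNAs of rRNA precursor processing were listed for U3, U8, U14, U22 and U13, with 12 of 13 names in the tables. Of these, 4 (Rnu3b1 to Rnu3b4) are U3 rows outside the 60 members. Several rows are copies of U3 or U14 that can share reads, so counts over the 12 rows do not count separate RNAs. All 12 were lower in EVs in each culture type, with medians of -1.23, -2.47, -2.06 and -2.86 in resting, stimulated, DMSO and GW4869 cultures. Snord22, which is needed for small-subunit rRNA, had folds of -2.41 ± 0.28, -2.74 ± 0.25, -2.67 ± 0.25 and -3.60 ± 0.26. Snord13, which guides acetylation of small-subunit rRNA, had -1.22 ± 0.22, -2.55 ± 0.21, -2.52 ± 0.22 and -3.20 ± 0.23 (SE). Snord118 stood at 495.1, 456.7 and 561.2 CPM in resting cells and, in their EVs, at 261.5, 257.0 and 200 CPM, and in DMSO cultures 907.3, 935.7 and 1015 CPM in cells and 154.9, 237.3 and 169.0 CPM in EVs. The cell libraries were above the EV libraries throughout. Its fold went from -1.08 ± 0.19 in resting to -2.35 ± 0.20 in DMSO cultures (SE).

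Rnu3a, a U3 snoRNA that starts the cleavage of the rRNA precursor, lies at chr10:40258467-40258679 on the plus strand, with a second annotation that ends 1 base later. Its level was 85.96, 97.13 and 111.7 CPM in resting cells, and the EVs of those cultures held 58.47, 32.65 and 42.40 CPM. Stimulated cells held 310.4, 334.1 and 366.1 CPM and stimulated EVs 28.00, 31.03 and 34.12 CPM. DMSO EVs were higher, at 88.08, 164.7 and 84.93 CPM, with replicate 2 above the other 2, and GW4869 EVs were lower again, at 44.33, 35.57 and 26.94 CPM. The fold between EVs and cells was -1.15 ± 0.28 in resting, -3.44 ± 0.29 in stimulated, -1.98 ± 0.27 in DMSO and -3.45 ± 0.29 in GW4869 cultures (SE).

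The rows Rnu3b1 to Rnu3b4 carry other U3 genes, and reads can be shared between them and Rnu3a. Their folds lay between -1.02 and -1.29 in resting cultures and between -2.23 and -2.40 in stimulated cultures, where Rnu3a stood at -3.44. With the 5 rows summed, a setting added after seeing the data, U3 had -1.15, -2.57, -1.67 and -2.87 in resting, stimulated, DMSO and GW4869 cultures. In that setting Snord14c and Snord14d, Snord50a and Snord50b, and Snord88a and Snord88c were summed as well, and 57 of 57 remaining rows were lower in EVs in each culture type.

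**Figure D4:**
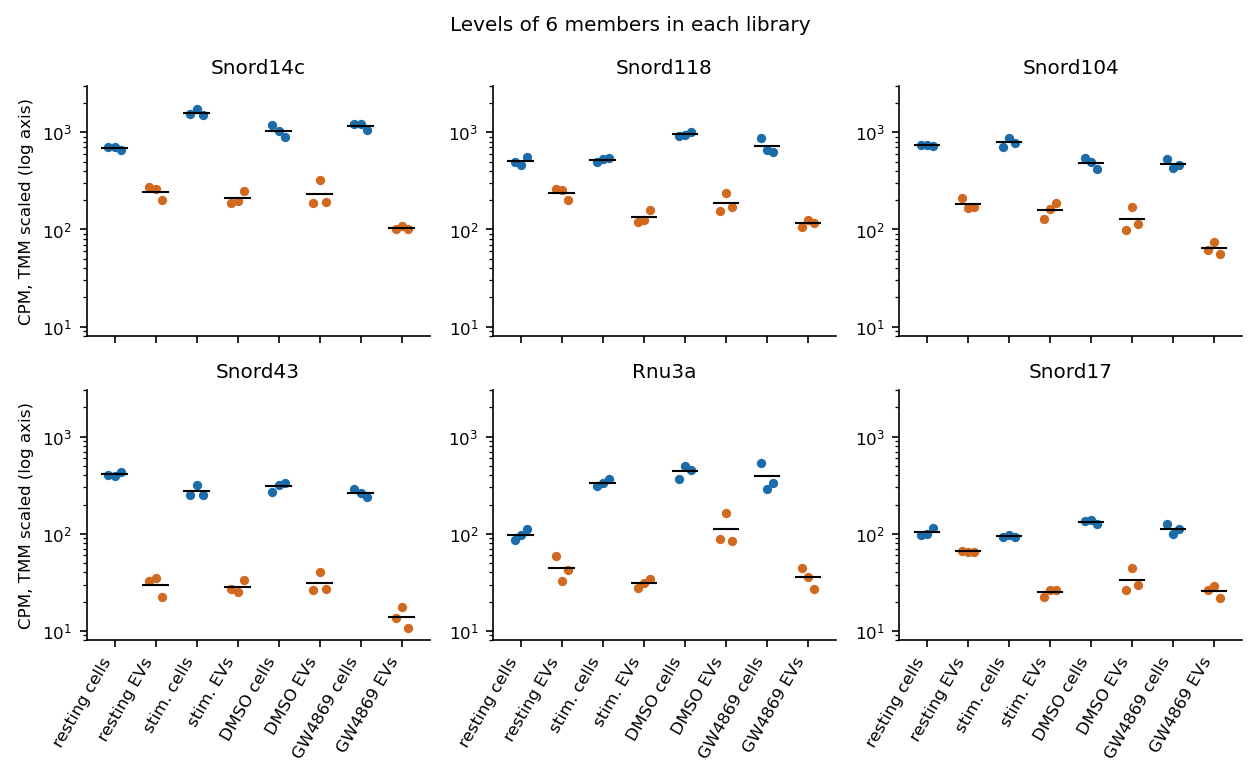
Levels of 6 members in the 24 libraries (CPM, TMM scaled, log axis; blue cells, orange EVs; lines are group means of 3 libraries). Cells lie above EVs in each panel and culture type; Snord17 is closest in resting cultures, and Rnu3a in cells is lowest at rest.

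Grouped by host gene, the members had similar medians where a host was annotated. Differences between host classes were not tested. The 22 members in ribosomal protein genes had median folds of -2.15, -2.94, -3.04 and -3.72 in resting, stimulated, DMSO and GW4869 cultures, the 20 in other coding genes -2.0, -2.81, -2.69 and -3.38, and the 14 in noncoding genes -2.02, -2.76, -2.66 and -3.61. The 4 for which GENCODE M21 holds no containing gene on the same strand (Rnu3a, Snord104, Snord118 and Snord13) had -1.18, -2.43, -2.16 and -3.05. A host missing from that annotation would not be seen. The 4 members of Rpl13a (Snord32a, Snord33, Snord34 and Snord35a) had medians of -2.23, -2.87, -3.30 and -4.07. From Gas5, which hosts many more, 2 of 10 listed names were in the tables (Snord47 and Snord80), and from Snhg1 1 of 8, Snord22. None of the 6 names listed as guides of U6 snRNA and none of the 8 from imprinted brain clusters were listed.

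A host's count in these tables often was its snoRNA. Of Hspa8 counts, 95.2% to 99.9% per library equalled the sum of Snord14c, Snord14d and Snord14e, and of Rpl13a counts 48.6% to 99.4% equalled its 4 members. For Gas5 the share was 12.7% to 22.6%. Of 23 box C/D proteins and assembly factors chosen as the pathway's other genes, Nop56, Nop58 and Ncl were listed, all 3 hosts of members. Their rows were lower in EVs in 4 of 4 culture types, at -2.61, -2.81, -2.93 and -3.68 for Nop56, but a median of 79.9% of Nop56 counts came from Snord57 and Snord110, so these rows do not measure the mRNA.

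Stimulated cells held more of many members than resting cells. Of 60 members, 32 were called higher and 3 lower, where 23.0% of all features were higher and 23.1% lower. The median log2 fold was 0.63 for the members and -0.05 for all features. With library totals in place of TMM, or TMM over the miRNAs, 55 members were higher and 0 lower. Of all 4408 features, 1991 were higher and 342 lower with library totals, and 1871 and 312 with TMM over the miRNAs. For 40 members the stimulated libraries lay wholly above the resting ones and for 5 wholly below, against 28.7% of all features each way. Without resting cell replicate 3 or stimulated cell replicate 1, 1 member was lower.

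Snord70 rose most, from 21.49, 19.58 and 19.35 CPM in resting cells to 63.37, 111.4 and 80.70 CPM in stimulated cells, a fold of 2.07 ± 0.32 (SE, adjusted p = 5.37e-06). Snord42b rose by 1.85 ± 0.23 and Rnu3a by 1.78 ± 0.27 (SE). The U14 copy Snord14c went from 710.8, 703.4 and 661.4 CPM to 1545, 1729 and 1525 CPM, 2.31-fold higher with no overlap. Of the 12 rRNA processing rows, copies included, 11 rose, and the exception was Snord118 at 0.05 ± 0.19 (edgeR, adjusted p = 0.842). The 3 called lower were Snord2 at -1.18 ± 0.23, Snord85 at -0.76 ± 0.27 and Snord43 at -0.59 ± 0.20 (SE). Of these, Snord43 and Snord85 turned to 0.22 and 0.05 with library totals and to 0.23 and 0.07 with TMM over the miRNAs, so their direction depends on the scaling. The H/ACA class had 16 of 21 higher and 4 lower in this comparison, with a median of 1.64. The Gm-named loci had 32 of 60 higher and 2 lower, with a median of 0.63.

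The DMSO-stimulated cells were compared with the same resting libraries, which both comparisons share. Here 48 members were called higher and 1 lower, where 19.4% of all features were higher and 20.6% lower, and the members' median was 1.02 against -0.02 for all features. Snord16a, from Rpl4, was highest at 2.69 ± 0.32, going from 6.613, 10.97 and 14.95 CPM to 70.06, 74.38 and 65.65 CPM. Rnu3a followed at 2.17 ± 0.27 and Snord19 at 2.14 ± 0.24, and Snord104 was the member called lower at -0.60 ± 0.20 (SE); it stood at 0.07 with library totals, and without DMSO cell replicate 3 it was not called. Of the 12 rRNA processing rows, copies included, 12 were higher. The H/ACA class had a median of 1.53, with 16 of 21 higher and 4 lower. The Gm-named loci had a median of 1.02, with 44 of 60 higher and 1 lower. Some gene names are repeated, and their values imply that the 12 resting and stimulated libraries were counted apart from the 12 DMSO and GW4869 libraries. The labels do not state this. For this comparison the culture and such a set of libraries cannot be told apart.

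In EVs the same stimulation left the members near or below the median feature. Between stimulated and resting EVs 4 members were called higher and 10 lower, where 28.9% of all features were higher and 25.2% lower, and the median was -0.23 for the members and 0.09 for all features. The calls changed with the scaling, for the members and for all features. With library totals 41 members were higher and 0 lower (2880 and 426 of 4408 features). With TMM over the miRNAs the counts were 51 and 0 (3220 and 311 features), and with RLE factors 2 and 16 (1053 and 1285 features). Snord17 was lowest at -1.40 ± 0.20, then Snord88c at -1.26 ± 0.37 and Snord21 at -1.01 ± 0.23 (SE), which stood at 0.01, 0.13 and 0.39 with TMM over the miRNAs. The 4 higher were Snord83b at 1.03 ± 0.27, Snord33 at 0.97 ± 0.21, Snord110 at 0.85 ± 0.34 and Snord38a at 0.73 ± 0.27 (SE). Without resting EV replicate 1, 8 members were higher and 5 lower. Without resting EV replicate 2 or 3, 2 were higher and 8 lower. Without stimulated EV replicate 1, 2 or 3 the counts were 6 and 6, 3 and 6, or 2 and 9.

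DMSO EVs against resting EVs gave 15 members higher and 3 lower, where 31.3% of all features were higher and 25.5% lower. The median was 0.17 for the members and 0.12 for all features. Snord57 was highest at 1.42 ± 0.27, then Snord70 at 1.35 ± 0.42 and Rnu3a at 1.34 ± 0.28 (SE). Those lower were Snord17 at -0.98 ± 0.20, Snord88a at -0.90 ± 0.37 and Snord104 at -0.54 ± 0.20 (SE), and all 3 were above 0 with library totals or TMM over the miRNAs. With library totals 55 members were higher and 0 lower (2912 and 430 of 4408 features). With TMM over the miRNAs the counts were 59 and 0 (3474 and 250 features), and with RLE factors 13 and 6 (1222 and 1251 features). In DMSO EVs replicate 2 held the highest level of 50 of the 60 members, and without it 10 members were lower; without resting EV replicate 1, or without DMSO EV replicate 1 or 3, 1 was.

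The EV to cell ratio was therefore tested for its own change. From resting to stimulated cultures it fell for 25 members and rose for 1, where 20.7% of all features fell and 15.2% rose. The median change was -0.82 in the members and -0.04 in all features. In the H/ACA class the median was -1.1, with 9 of 21 lower and 0 higher. In the Gm-named loci it was -0.91, with 27 of 60 lower and 1 higher. Rnu3a changed most, by -2.29 ± 0.39 (SE, adjusted p = 5.36e-05), and by -1.42 with the U3 rows summed. Snord14a from Rps13 changed by -1.81 ± 0.32, Snord35b by -1.68 ± 0.44 and Snord14c by -1.44 ± 0.27. Of the 12 rRNA processing rows, copies included, 11 fell. Snord85 was the member that rose, by 1.43 ± 0.46 (SE, adjusted p = 0.0163), from 53.73, 40.73 and 51.90 CPM (cells) and 7.902, 3.473 and 4.712 CPM (EVs) at rest to 23.85, 32.82 and 29.98 CPM (cells) and 7.499, 8.411 and 9.438 CPM (EVs) after stimulation. Its EV levels rest on few counts, and without resting EV replicate 2 it was no longer called. Library totals gave 4 members higher and 16 lower (899 and 677 of 4408 features), and TMM over the miRNAs 4 and 8 (1082 and 463 features).

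From resting to DMSO cultures the ratio fell for 23 members and rose for 0 (edgeR), where 21.5% of all features fell and 18.9% rose. The median was -0.79 for the members, -0.97 for the H/ACA class, -0.84 for the Gm-named loci and 0.07 for all features. Snord16a was lowest at -1.69 ± 0.52, then Snord45c at -1.64 ± 0.34 and Snord50a at -1.51 ± 0.41 (SE). TMM over the miRNAs turned the members' median to 0.34, with 11 higher and 0 lower. In that setting 2199 of 4408 features were higher and 220 lower, and the median of all features was 1.23. Library totals gave 2 members higher and 13 lower (1319 and 636 features). This comparison, too, crosses the 2 sets of libraries that the repeated gene names imply.

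DMSO and stimulated cultures differ in the solvent and, as inferred above, in the set of libraries. The labels give no antibody dose for the DMSO cultures, so whether the stimulation was equal is not known. Between their cells 22 members were higher in DMSO and 4 lower, where 11.9% of all features were higher and 17.2% lower, with medians of 0.33 for the members and -0.01 for all features. Snord72, from Rpl37, was highest at 2.00 ± 0.32 and Snord95, from Rack1, next at 1.67 ± 0.27, while Snord33 at -0.74 ± 0.20 (SE), Snord104 at -0.70, Snord14c at -0.63 and Snord14d at -0.59 were lower. Library totals gave 15 higher and 7 lower (376 and 853 of 4408 features), and TMM over the miRNAs 12 and 10 (227 and 1053 features). Without stimulated cell replicate 2 or DMSO cell replicate 3, 2 were lower. Between their EVs 8 members were higher and 0 lower (edgeR; 13.6% and 9.91% of all features), led by Rnu3a at 1.85 ± 0.27, Snord15a at 1.48 ± 0.29 and Snord95 at 1.23 ± 0.33 (SE). TMM over the miRNAs gave 19 higher and 0 lower (741 and 175 of 4408 features), and the compared groups alone 2 and 0 (197 and 152 of 4381 features). Without stimulated EV replicate 1, 4 were higher, without its replicate 2, 2 were, and without DMSO EV replicate 2, 5 were higher and 2 lower.

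GW4869 left the members in cells without a call. Between GW4869 and DMSO cells 0 members were higher and 0 lower by edgeR, where 2.88% of all features were higher and 0.113% lower; 2 members had an unadjusted p under 0.05, and DESeq2 called 1 lower. Folds ran from -0.75 to 0.29 with a median of -0.12. In Snord14c, DMSO cells held 1181, 1025 and 898.6 CPM and GW4869 cells 1223, 1206 and 1067 CPM, with overlap, and the fold was 0.17 ± 0.19 (SE, adjusted p = 0.814).

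In EVs the members were lower with GW4869 than with DMSO. All 60 folds were below 0, 41 were called lower and 0 higher, where 9.69% of all features were lower and 7.89% higher, and the median was -0.87 for the members and -0.07 for all features. For 43 members the GW4869 libraries lay wholly below the DMSO libraries, as for 16.1% of all features. Snord14c went from 188.9, 321.0 and 193.9 CPM to 101.0, 109.7 and 100.4 CPM, a fold of -1.17 ± 0.20 (SE, adjusted p = 0.000453). Rnu3a was lowest at -1.65 ± 0.27, then Snord33 at -1.58 ± 0.22 and Snord70, on few counts, at -1.55 ± 0.39 (SE). Of the 12 rRNA processing rows, copies included, 11 were lower. Other small RNA classes lay below 0 too. Of the 21 H/ACA snoRNAs and scaRNAs 19 folds were below 0 and 5 were called lower, with a median of -0.62. Of the 60 loci with Gm names 58 were below 0 and 26 were called lower, with a median of -0.72. Among 279 miRNAs 268 were below 0 and 53 were called lower, with a median of -0.53. Differences between the classes were not tested.

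The calls in this GW4869 comparison depended on the fit and on single libraries. With library totals 14 members were called lower and 0 higher (109 and 576 of 4408 features). With TMM over the miRNAs the counts were 9 and 0 (63 and 532 features). In a fit of these 6 EV libraries alone 0 of 59 members and 0 of 4367 features passed (edgeR). Still, 42 of those members had an unadjusted p under 0.05, and the median was -0.83. Without DMSO EV replicate 2, 17 members were called, and without GW4869 EV replicate 1, 2 or 3, 15, 24 or 11.

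The EV to cell ratio fell from DMSO to GW4869 for 10 members and rose for 0 (edgeR), where 5.83% of all features fell and 1.75% rose. The median was -0.74 for the members, -0.57 for the H/ACA class, -0.56 for the Gm-named loci and -0.11 for all features. Snord70 changed by -1.84 ± 0.48, Rnu3a by -1.48 ± 0.37, Snord33 by -1.46 ± 0.29 and Snord14c by -1.35 ± 0.27 (SE). The value of Snord70 rests on 5, 16 and 6 counts in GW4869 EVs. In a fit of the 4 groups alone 0 members were called, with 16 at an unadjusted p under 0.05. Without DMSO EV replicate 1, 16 members were called, and without its replicate 2 or 3, 5 or 15. Without GW4869 EV replicate 1, 2 or 3, 6, 5 or 3 were called. Without DMSO cell replicate 2, 6 were, and without GW4869 cell replicate 1 or 3, 4 or 6.

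**Figure D5:**
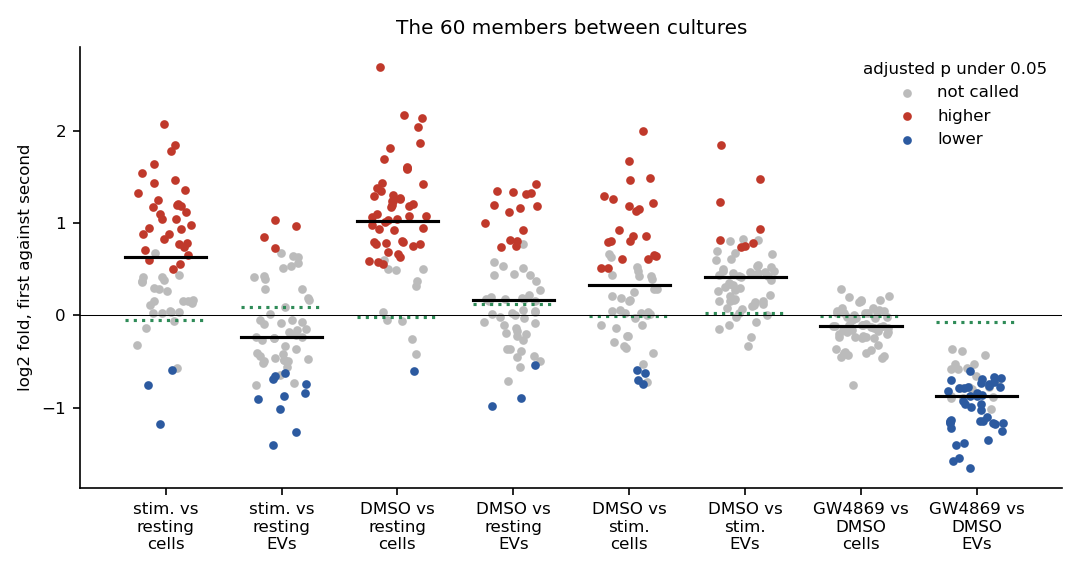
Log2 folds of the 60 members between culture types, in cells and in EVs (points; red called higher, blue called lower, grey not called). Black lines are the members' medians and green dotted lines those of all features; the members lie highest in DMSO against resting cells (median 1.02) and lowest in GW4869 against DMSO EVs (median -0.87).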

How the data were processed

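Counts per annotated feature were deposited by the authors, 1 file per library (24 files of 4441 lines). Per the submitters' processing notes, Bowtie and the build GRCm38/mm10 were used; the version and settings of Bowtie, the annotation, the counter, strand and size selection are not given in the sources used here. After dropping 33 repeated lines, 4408 features remained. The members and lists were chosen with earlier results of these data known.

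Counts were fitted with edgeR 4.0.16 in R 4.3.3 (TMM, filterByExpr with a minimum count of 10, which removed 0 features, quasi-likelihood F test, 8 groups of 3, 15 comparisons). P-values were adjusted by Benjamini-Hochberg over all features, and 0.05 was the threshold. SE is the absolute log2 fold divided by the square root of F. The fit relative to the members used summed member counts and TMM over the members. Alternatives were RLE factors, library totals, TMM over miRNAs, other filters, DESeq2 1.42.0, host genes left out, the compared groups alone, the replicate block and leaving out each library. The fit was tested on simulated data.

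Named were the 6 most abundant members, Rnu3a, Snord43, the 3 at each end of each comparison and those called alike in 4 culture types. Others named besides were chosen after their values were seen. Same-numbered libraries deviated together (correlations of 0.25, 0.28 and 0.24) between DMSO and resting cells only, and labels do not say what a number marks. Gene models and sequences were GENCODE M21.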

Additional observations from a re-analysis of the deposited data

Results flagged for a closer look

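The change of the EV to cell ratio between culture types was the test of a difference between 2 groups' effects, and these members passed it (edgeR, log2, adjusted p under 0.05). From resting to stimulated cultures 25 members fell and 1 rose: among the named ones Rnu3a changed by -2.29, Snord14a by -1.81, Snord35b by -1.68, Snord14d by -1.52, Snord14c by -1.44, Snord65 by -0.93, Snord118 by -0.89 and Snord85 by 1.43. From resting to DMSO cultures 23 fell, among them Snord16a by -1.69, Snord45c by -1.64, Snord50a by -1.51, Snord118 by -1.27 and Snord14d by -0.77. With TMM over the miRNAs 11 members rose and 0 fell (2199 and 220 of 4408 features), and Snord14d stood at 0.31. From DMSO to GW4869 cultures 10 fell, among them Snord70 by -1.84, Rnu3a by -1.48, Snord33 by -1.46, Snord14c by -1.35, Snord14d by -1.29 and Snord104 by -0.96. Comparisons with resting cultures share the resting libraries.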

How the results depend on the processing

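The 60 lower calls between EVs and cells held in all 4 culture types with RLE factors, library totals, other filters and DESeq2; TMM over the miRNAs gave 59 in DMSO cultures. The resting libraries alone tested 59 members and called 59 lower, and leaving out resting cell or EV replicate 3 gave 59. With the replicate block, 60 members were lower in each culture type, GW4869 against DMSO EVs gave 39 and DMSO against resting cells 46, so the block changed no count by over 1.5 times; the numbers were not shown to pair the libraries except between DMSO and resting cells.

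Between culture types the counts changed with the scaling and with the libraries fitted, and the cause was not tested. The counts over all 4408 features moved as well. Library totals called 1991 features higher and 342 lower for stimulated against resting cells, 2880 and 426 in their EVs, and 2912 and 430 for DMSO against resting EVs. For TMM over the miRNAs these were 1871 and 312, 3220 and 311, and 3474 and 250. The member counts below are to be read beside such shifts. Library totals gave, as members higher and lower, 55 and 0 for stimulated against resting cells, 41 and 0 in their EVs, 0 lower for DMSO against resting cells, 55 and 0 in their EVs, 7 lower for DMSO against stimulated cells, 14 lower for GW4869 against DMSO EVs, and for the ratio 4 and 16 (stimulated), 2 and 13 (DMSO) and 6 lower (GW4869). TMM over the miRNAs gave 55 and 0, 51 and 0, 0 lower, 59 and 0, 12 and 10, 19 higher for DMSO against stimulated EVs, 9 lower, and for the ratio 4 and 8, 11 and 0, and 3 lower. RLE factors gave 2 and 16 for stimulated against resting EVs, 6 lower for DMSO against resting EVs, 2 lower for DMSO against stimulated cells and 6 lower for the GW4869 ratio. DESeq2 gave 2 higher for stimulated against resting EVs, 7 lower for DMSO against resting EVs and 1 lower for GW4869 against DMSO cells. The compared groups alone gave 2 lower for DMSO against resting cells, 9 and 1 in their EVs, 8 lower for DMSO against stimulated cells, 2 higher in their EVs, 1 lower for GW4869 against DMSO cells, 0 in their EVs and 0 for the GW4869 ratio. Summed member counts without factors gave 9 higher relative to the members in DMSO cultures. Leaving host and other genes that contain a small RNA out of the denominator raised the shares to 0.741%, 1.94%, 1.91% and 1.93% in resting, stimulated, DMSO and GW4869 cells and 0.224%, 0.361%, 0.41% and 0.271% in their EVs.

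Direction turned with library totals for stimulated against resting cells in Snord43 (0.22) and Snord85 (0.05), for their EVs in Snord118 (0.27), Snord21 (0.10) and the members' median (0.88), for DMSO against resting cells in Snord104 (0.07), and for their EVs in Snord104 (0.53), Snord17 (0.09) and Snord88a (0.15). With TMM over the miRNAs it turned in Snord43 (0.23) and Snord85 (0.07) in stimulated cells, in Snord118 (0.56), Snord17 (0.01), Snord88c (0.13), Snord21 (0.39) and the median (1.17) in stimulated EVs, in Snord104 (1.03), Snord17 (0.59) and Snord88a (0.62) in DMSO EVs, in the medians of DMSO against stimulated cells (-0.02), of GW4869 against DMSO cells (0.12) and of the DMSO ratio (0.34), and in the DMSO ratio of Snord14d (0.31).

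Leaving out 1 library gave 28 to 32 higher and 1 to 3 lower for stimulated against resting cells, 2 to 8 and 5 to 9 in EVs, 42 to 48 and 0 to 1 for DMSO against resting cells, 10 to 17 and 1 to 10 in EVs, 15 to 19 and 2 to 4 for DMSO against stimulated cells, 2 to 11 and 0 to 2 in EVs, and 11 to 43 lower for GW4869 against DMSO EVs. For the ratio it gave 0 to 1 higher and 18 to 26 lower (stimulated), 19 to 34 lower (DMSO) and 3 to 16 lower (GW4869). Relative to the members it gave 12 to 13 higher and 7 to 10 lower in resting, 9 to 12 and 7 to 11 in stimulated, 10 to 14 and 8 to 12 in DMSO, and 7 to 11 and 6 to 9 in GW4869 cultures. With 3 libraries a group and EV counts as low as 4, small differences of rare members could not be seen.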
